A study of Mus musculus with 48 samples.

Results

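The suprachiasmatic nucleus marker genes described here are Vip, Nms, Grp, Prok2, Rgs16, Syt10, Lhx1 and Six6, 8 of the 21558 genes measured. They were chosen by name, with earlier results of these data known. They were followed in RNA sequencing of hypothalamus from C57BL/6 male mice (C57BL/6N in the design text), in 48 libraries that each pool tissue of 3 mice. The libraries form 8 series of 6, and the 6 libraries of a series carry the title numbers 1, 5, 9, 13, 17 and 21. These numbers have no unit in the labels and were taken as hours of a 24-hour day, which is an assumption. Free-moving mice were set against mice whose hind limbs were unloaded, a treatment in which the tail is suspended and the hind limbs bear no weight. The early period holds 4 series of mice labelled 2 months old, kept at 10 dBA and normal pressure. A pair of them were free-moving (series a and b, with the same labels) and a pair unloaded (again a and b). The late period holds 4 series labelled 3 months old, although the design text gives 2 months for all mice. Of the late mice, some lived in quiet (10 dBA, normal pressure) and some in noise with low pressure (85 dBA, 0.9 atm), and each setting had 1 free-moving and 1 unloaded series. Noise and low pressure always came together. Age and period also changed together, and each late condition is a single series, so none of these can be told apart. The labels name no animal or dissection batch behind a pool, so a p-value weighs a difference against the spread among pools, which may be technical in part.

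The suprachiasmatic nucleus is the small paired nucleus above the optic chiasm that keeps the body's daily clock and is set by light. Its core neurons make vasoactive intestinal peptide (Vip) and gastrin-releasing peptide (Grp), which couple the neurons and carry the light signal. Neuromedin S (Nms) marks a large share of its cells, and prokineticin 2 (Prok2) is a rhythmic output signal to other brain areas. Rgs16 limits G protein signalling in its cells, Syt10 is a synaptotagmin enriched there, and Lhx1 and Six6 are transcription factors needed for the identity of its neurons. Several of these genes are also expressed elsewhere in the brain, Vip in cortical interneurons and Rgs16 in the thalamus. In pooled hypothalamus, fewer cells of a type and less RNA per cell cannot be told apart.

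The stretch just before each gene's start was read for letters bound by known daily and activity-dependent regulators, because the design follows the genes over title numbers and conditions. RefSeq sequences on GRCm38.p6 were matched for 7 of the 8 genes. The letters CACGTG, the E-box bound by CLOCK and BMAL1, were found upstream of Prok2, 135 bases before its start. The letters TGACGT, the first letters of the cyclic AMP response element, were found upstream of Vip and Lhx1, 79 and 50 bases before the start. All were searched on both strands. Of 32851 promoters of the same length, 6.02% held CACGTG and 6.47% held TGACGT, so a match is common. The D-box letters TTATGTAA (0.82% of promoters) and the letters AGGTCA bound by ROR and REV-ERB receptors (14.02%) were in none of the 7. The 3 sequences with a match are printed 5′ to 3′ in the direction of the gene, 250 bases each, with the matched letters in capitals. They lie at chr6:99726393-99726642 (minus strand) for Prok2, chr10:5638968-5639217 (plus strand) for Vip and chr11:84525535-84525784 (minus strand) for Lhx1.
Prok2: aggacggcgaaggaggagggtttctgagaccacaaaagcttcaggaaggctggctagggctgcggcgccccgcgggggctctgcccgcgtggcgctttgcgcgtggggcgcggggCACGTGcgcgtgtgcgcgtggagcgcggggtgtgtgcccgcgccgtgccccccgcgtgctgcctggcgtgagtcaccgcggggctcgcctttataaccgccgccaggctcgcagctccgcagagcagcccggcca
Vip: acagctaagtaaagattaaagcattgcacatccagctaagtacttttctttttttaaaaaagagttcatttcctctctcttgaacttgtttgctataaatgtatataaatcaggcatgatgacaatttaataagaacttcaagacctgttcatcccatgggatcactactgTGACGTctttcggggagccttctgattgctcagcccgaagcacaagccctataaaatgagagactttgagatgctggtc
Lhx1: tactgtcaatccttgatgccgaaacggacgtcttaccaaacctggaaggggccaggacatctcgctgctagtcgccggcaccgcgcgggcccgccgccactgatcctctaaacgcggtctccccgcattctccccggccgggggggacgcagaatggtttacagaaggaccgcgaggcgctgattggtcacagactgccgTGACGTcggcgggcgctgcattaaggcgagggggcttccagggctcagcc
The GC content of these stretches was 73.6% for Prok2, 38.4% for Vip and 64.8% for Lhx1, against a median of 52.4% over all promoters. A match of letters describes the sequence only.

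Facts of the libraries that touch the results are these. Depth, estimated from how low RPKM values step, came to 28.35 to 55.2 M reads per library. The hypothalamic genes Avp (610.5 to 7580 RPKM), Oxt (466.2 to 3227), Hcrt (140.2 to 440.2) and Pmch (40.5 to 485.0) were present in all libraries. The share of RPKM in mitochondrially encoded genes was lowest in the late quiet series (11.5 ± 1.68% free-moving and 14.03 ± 1.32% unloaded, SD, n = 6 each) and 20.5% to 44.5% on average in the other series. RPKM is a share of a total, so this share moves all other genes. In 7 of the 12 late quiet libraries (title numbers 9, 13 and 17 in both series and 21 in the unloaded series), thalamic genes stood apart. Prkcd, a kinase gene of thalamic relay neurons, was at 20.6 to 50.8 RPKM there and at 4.43 to 12.9 in the other 41 libraries. The 7 were grouped by Prkcd of 15 RPKM or more, so its range describes the grouping only. Of 5 other thalamic marker genes, Rgs16 left out, 3 (Tcf7l2, Ntng1 and Plekhg1) were higher in these 7 than in every other library, and Slc17a6 and Calb2 were not. The summed level of these 5 was 259.6 to 293.5 RPKM in the 7, 206.0 to 248.9 in the other 5 late quiet libraries and 190.1 to 299.0 over all 41 libraries outside the 7, so it did not separate them from the other series. Calb2 made up most of this sum, at 183.2 to 226.6 RPKM in the 7 and 157.4 to 266.8 in the other 41, so the sum says little about the other genes. None of the 5 was at 0 in any library. The 7 are called thalamus-rich below, a grouping made after the data were seen. Called differences of members that rest on the late quiet series are given with and without them. In 1 early library, unloaded series a number 9, the pituitary genes Gh (10146 RPKM) and Prl (1854) were present.

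RPKM values are divided by transcript length, so levels can be set beside each other. Averaged over all 48 libraries, Rgs16 was highest at 11.9 RPKM, followed by Vip at 7.48 and Grp at 5.55. Six6 (1.57), Nms (1.55), Lhx1 (1.04), Prok2 (0.89) and Syt10 (0.82) were all low. The coefficient of variation over the 48 libraries ran from 24.4% for Grp and 26.9% for Vip to 69.2% for Lhx1 and 111% for Syt10. Over all libraries Grp and Vip thus varied least, and Syt10 and Lhx1 most. The highest series mean exceeded the lowest by 22.8 times for Syt10, 6.47 for Lhx1, 3.05 for Nms and 3.03 for Rgs16. For Prok2, Grp, Vip and Six6 that ratio was 1.87, 1.45, 1.43 and 1.35.

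**Figure D1:**
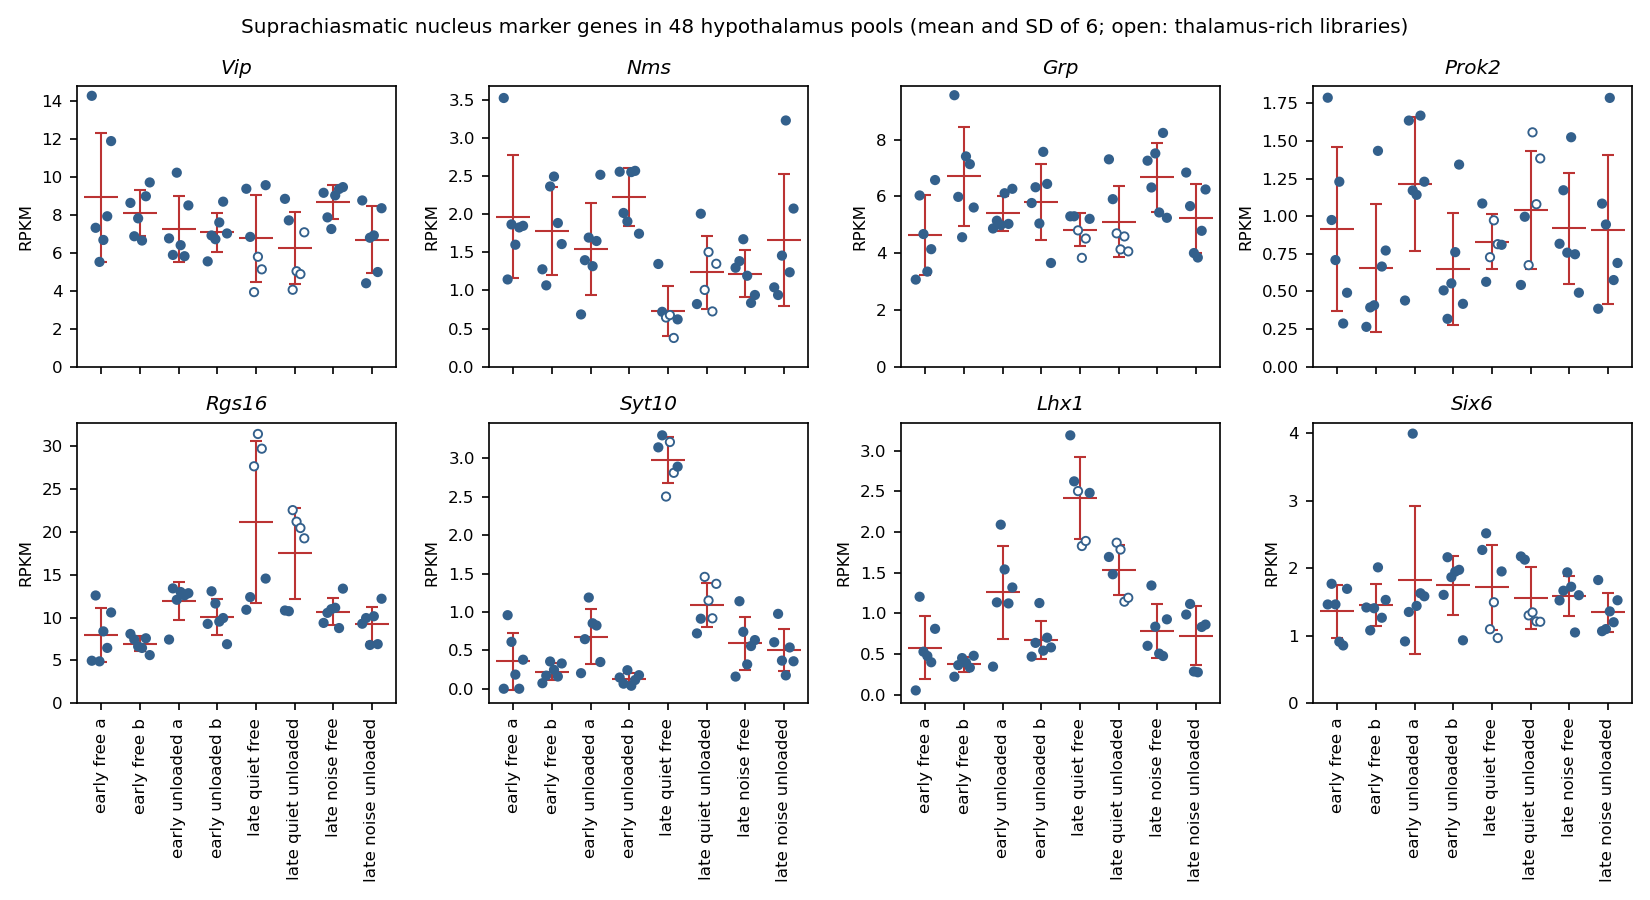
RPKM (y axis) of each gene in every library of the 8 series (x axis); points are pools of 3 mice in title number order, red lines the mean and SD of 6, open points the 7 thalamus-rich libraries. Syt10 in the late quiet free-moving series lies at 2.50 to 3.30, above all other libraries, while Vip and Grp overlap across the series.

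Differences between series were tested with limma on log2(RPKM + 0.5) over 13685 genes, including all 8 members, with two-sided p-values adjusted by Benjamini and Hochberg's method over the whole table, and calls were made under 0.05. A log2 difference on this scale understates changes of low genes. Large parts of all genes were called in most comparisons. In early unloading 2 members were called, both higher (Rgs16 and Lhx1), where 52.8% of all genes were called 50.9% higher and 1.88% lower. In late unloading in quiet 1 member was called, Syt10, which was lower, where 12.8% of genes were called, 9.38% higher and 3.38% lower. In late unloading with noise 0 members were called by limma, where 0.0146% of genes were (2 genes, with 855 at an unadjusted p under 0.05). Vip (log2 −0.38, unadjusted p = 0.027) and Grp (−0.33, unadjusted p = 0.049) were the 2 members under an unadjusted 0.05 there.

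Members called between the late noise and late quiet free-moving series differed in both directions. In free-moving mice 6 of 8 were called, where 57.6% of all genes were. Vip, Nms and Grp were higher (21.2% of genes called higher), and Rgs16, Syt10 and Lhx1 were lower (36.4% called lower). The calls of Vip, Nms, Grp and Rgs16 were lost without the thalamus-rich libraries. In unloaded mice 3 were called, Rgs16, Syt10 and Lhx1, all lower, where 52.3% were called, 6.75% higher and 45.6% lower. The late quiet series against the early quiet series gave calls for 5 members in free-moving mice, with Rgs16, Syt10 and Lhx1 higher and Vip and Nms lower. There 78.5% of all genes were called, 60.5% higher and 18.0% lower. In unloaded mice 4 were called, Rgs16, Syt10 and Lhx1 higher and Nms lower, where 47.3% were called, 38.8% higher and 8.53% lower. Most counts of members are near or below the share of all genes, so they say little about the members, and the sizes follow gene by gene. The late quiet free-moving series enters 3 of these comparisons and the interaction, so their values are not independent of each other.

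Against the median of all genes, the members as a whole did not move 1 way. In late against early free-moving mice the median log2 difference of the 8 members was 0.16 and that of all 13685 genes 0.43. In noise in free-moving mice the medians were 0.01 and −0.15, and in early unloading 0.16 and 0.23. The spread inside the set was wide, from 2.21 for Syt10 to −0.94 for Nms in late against early free-moving mice. Prok2 and Six6 passed in 0 of the 10 comparisons between series. Scaling moved this background: the share of calls that were higher in late against early free-moving mice was 77.1% as deposited, 52.5% after quantile normalization and 50.7% with median-ratio scaling, and the median of all genes then 0.03 and 0.01. In early unloading that share was 96.4%, 54.6% and 47.5%, with noise in free-moving mice 36.8%, 47.7% and 50.1%, and with noise in unloaded mice 12.9%, 46.1% and 52.5%. In late against early unloaded mice it was 82.0%, 52.5% and 49.4%, in late unloading in quiet 73.5%, 49.5% and 44.4%, and for the interaction 66 genes were called higher and 534 lower, then 512 and 511, then 406 and 223. None of the 23 called differences of members changed direction under either scaling.

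**Figure D2:**
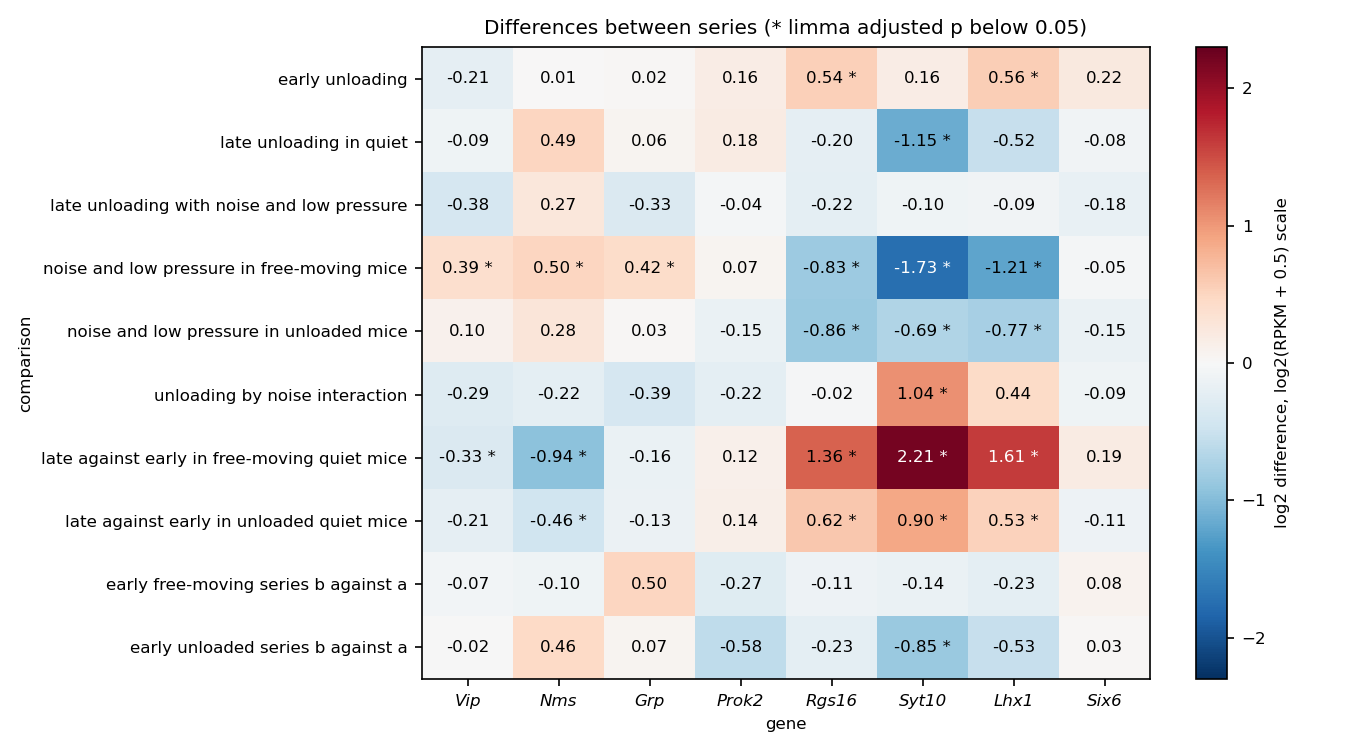
Log2 difference on the log2(RPKM + 0.5) scale for the 8 genes (columns) in 10 comparisons (rows), from limma on 48 libraries; an asterisk marks an adjusted p below 0.05. Syt10, Lhx1 and Rgs16 are higher and Nms lower in the late quiet series against the early ones, and Prok2 and Six6 carry no asterisk.

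Vip (ENSMUSG00000019772.5, chromosome 10, 5639218 to 5647617 in GENCODE M21 on GRCm38) is the leading peptide of the light-receiving core. Its series means lay between 6.27 ± 1.89 RPKM in late quiet unloaded and 8.94 ± 3.40 in early free-moving series a (SD, n = 6 each). The late quiet free-moving series ran from 3.93 through a median of 6.32 to 9.57 RPKM, the late noise free-moving series from 7.26 through 9.10 to 9.47. The early free-moving series ran from 5.52 through 7.63 to 14.3 in a and from 6.65 through 8.23 to 9.72 in b. All these ranges overlap, and neighbours in the order of means differ by less than 1 SD. In limma Vip was higher with noise in free-moving mice (log2 0.39 ± 0.17 SE, adjusted p = 0.043, higher in 4 of 6 title numbers). It was lower in late than in early free-moving mice (−0.33 ± 0.15, adjusted p = 0.037, lower in 6 of 6).

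Both Vip calls were lost without the thalamus-rich libraries. In the 7 thalamus-rich libraries Vip was at 5.13 ± 1.08 RPKM (SD), in the other 5 late quiet libraries at 8.47 ± 1.16, and in the other 36 at 7.80 ± 1.93. The highest of the 7 was 7.09 and the lowest of the 5 was 6.84, so the sets overlap by 1 library on each side. The 7 lie at numbers 9, 13, 17 and 21 and the 5 at 1, 5 and 21. Thalamic content and title number thus go together in this split. Without the 7 the difference with noise was 0.08 and that of late against early free-moving mice −0.01 (limma adjusted p = 0.77 and 0.95). Over all alternatives the adjusted p ran from 0.0029 to 0.79 for the first and from 7.5e-06 to 0.95 for the second, with the call lost in 8 and 10 of 18. Among these were the mitochondrial covariate and leaving out number 9, 13 or 17. The second was −0.83 after quantile normalization.

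Nms (ENSMUSG00000067604.8, chromosome 1, 38939149 to 38950276) encodes neuromedin S, which acts in the clock's coupling. In the late quiet free-moving series it lay at 0.376, 0.620, 0.645, 0.677, 0.719 and 1.35 RPKM (mean 0.73 ± 0.33 SD). Early free-moving series a ran from 1.14 through a median of 1.84 to 3.53, and b from 1.07 through 1.75 to 2.50. Of the 6 late quiet free-moving libraries, 5 were below all 12 early free-moving ones, and the library at 1.35 was not. How many of all genes part in this way was not counted. Nms was lower in late than in early free-moving mice by limma (log2 −0.94 ± 0.18 SE, adjusted p = 1.7e-05, lower in 6 of 6 title numbers). This call passed in all 18 alternatives (log2 −1.27 to −0.65), without the thalamus-rich libraries at −0.66 (adjusted p = 0.023, the highest of the 18).

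Most other series held more Nms. Means were 2.23 ± 0.38 in early unloaded b, 1.97 ± 0.81 and 1.78 ± 0.58 in early free-moving a and b, 1.66 ± 0.87 in late noise unloaded, 1.54 ± 0.60 in early unloaded a, 1.24 ± 0.48 in late quiet unloaded and 1.22 ± 0.30 in late noise free-moving (SD, n = 6 each). Neighbours in this order differ by less than their SD, and only the late quiet free-moving series at 0.73 stands lower than the next mean by more than its own SD. In unloaded mice the late series was lower than the early ones as well (limma log2 −0.46 ± 0.18, adjusted p = 0.040, lower in 5 of 6), and noise in free-moving mice came with more Nms (0.50 ± 0.21, adjusted p = 0.042, higher in 5 of 6). Without the thalamus-rich libraries these were −0.21 (adjusted p = 0.72) and 0.23 (adjusted p = 0.54), which are the highest adjusted p of their alternatives (the lowest were 2.8e-05 and 0.0051). They were lost in 7 and 9 of 18, among them the mitochondrial covariate and leaving out number 9 or 17. Nms was 0.49 ± 0.21 higher with late unloading in quiet and did not pass (adjusted p = 0.12). The median library held about 56.0 reads.

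Grp (ENSMUSG00000024517.17, chromosome 18, 65872820 to 65886596) encodes gastrin-releasing peptide, made in core cells that receive retinal input. Its means ran from 4.64 ± 1.42 RPKM in early free-moving a to 6.71 ± 1.74 in early free-moving b (SD, n = 6 each), so series with the same labels held both ends of its range. Late noise free-moving mice (5.25, median 6.79, highest 8.24) lay mostly above late quiet free-moving mice (3.83, median 5.01, highest 5.30), with 5 of the 6 noise libraries above 5.30. The share of all genes that part in this way was not counted. In limma the difference of Grp with noise in free-moving mice was 0.42 ± 0.16 (adjusted p = 0.028, higher in 6 of 6 title numbers). It did not pass without the thalamus-rich libraries (0.34, adjusted p = 0.22; 9.4e-05 to 0.29 over the alternatives) or without number 9, 13 or 17 (adjusted p = 0.084, 0.051 and 0.14). The difference between the 2 early free-moving series, which carry the same labels, was 0.50 ± 0.16 and also did not pass (adjusted p = 0.13). By limma 0 members passed there and Grp alone had an unadjusted p under 0.05 (0.0041), where 0.256% of genes were called, 0.0512% higher. Grp passed in 4 of 18 alternatives.

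Prok2 (ENSMUSG00000030069.15, chromosome 6, 99711299 to 99726392), the output signal with the E-box in its upstream stretch printed above, kept a low level. Its means ran from 0.65 ± 0.37 RPKM in early unloaded b and 0.66 ± 0.42 in early free-moving b through 0.83 ± 0.18, 0.91 ± 0.50, 0.91 ± 0.54, 0.92 ± 0.37 and 1.04 ± 0.39 to 1.21 ± 0.45 in early unloaded a (SD, n = 6 each). No pair of neighbours in this order differs by more than its SD. The largest of its 10 differences was between the unloaded early series of the same labels (b against a, limma log2 −0.58 ± 0.21, adjusted p = 0.10, where 0.833% of genes were called). It passed there in 2 of 18 alternatives. Its median library held about 58.5 reads.

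Rgs16 (ENSMUSG00000026475.7, chromosome 1, 153740349 to 153745468), a brake on G protein signalling, had its highest libraries in the late quiet series. The late quiet free-moving libraries were at 10.9, 12.4, 27.7, 31.4, 29.7 and 14.6 RPKM for numbers 1, 5, 9, 13, 17 and 21. The late quiet unloaded libraries were at 10.8, 10.7, 22.5, 21.2, 20.5 and 19.2. The 7 values above 19 are the 7 thalamus-rich libraries, and in them Rgs16 averaged 24.6 ± 4.90, against 11.9 ± 1.64 in the other 5 late quiet libraries and 9.46 ± 2.58 in the other 36 (SD). The highest of those 36 was 13.4. Rgs16 is itself on the list of thalamic markers used here, and its transcripts from thalamus and from the suprachiasmatic nucleus cannot be told apart in pooled tissue.

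The called differences of Rgs16 in the late series are therefore given both ways. With all libraries it was higher in late than in early free-moving mice (limma log2 1.36 ± 0.19 SE, adjusted p = 2.3e-08, 6 of 6 title numbers) and in late than in early unloaded mice (0.62 ± 0.19, adjusted p = 0.0077, 5 of 6). It was lower with noise in free-moving (−0.83 ± 0.21, adjusted p = 0.0012, 6 of 6) and unloaded mice (−0.86 ± 0.21, adjusted p = 0.0035, 6 of 6). Without the thalamus-rich libraries the first was still called (0.71, adjusted p = 0.0020; highest over its alternatives 0.030), where 50.5% of all genes were called higher (median of all genes 0.38). The others were −0.01, −0.18 and −0.23 and were not called (adjusted p = 0.99, 0.52 and 0.55; the lowest over their alternatives were 5.8e-05, 3.3e-05 and 0.0011). With the mitochondrial covariate these 3 were 0.31, −0.38 and −0.44 and were not called either (adjusted p = 0.22, 0.14 and 0.28).

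In the early period no library was thalamus-rich, that is at Prkcd of 15 RPKM or more. Of 7 listed thalamic markers, 3 were called higher with early unloading (Rgs16, Ntng1 and Plekhg1) and 0 lower. Their list median was 0.32 against 0.23 for all genes, of which 50.9% were called higher. Rgs16 was higher with unloading and kept its call with thalamic marker level as a covariate. Early unloaded series a ran from 7.43 through a median of 12.7 to 13.4 RPKM and b from 6.89 through 9.73 to 13.1. Early free-moving series a ran from 4.88 through 7.42 to 12.6 and b from 5.61 through 7.03 to 8.08. In limma the difference was 0.54 ± 0.15 (adjusted p = 0.0063, higher at all 6 numbers). The median of all genes was 0.23. It did not pass with the mitochondrial share as a covariate (0.22, adjusted p = 0.96), after quantile normalization (0.28, adjusted p = 0.11) or median-ratio scaling (0.30, adjusted p = 0.076), without number 9 or 17 (0.45 and 0.52, adjusted p = 0.068 and 0.057), or for unloaded series b alone (0.37 and 0.48 against the free-moving series, adjusted p = 0.40 and 0.32). The lowest adjusted p over its alternatives was 3.1e-05. Few of all 13685 genes were called in most of these fits. With the mitochondrial covariate 1 was, without number 9 20 higher and 1 lower, and without number 17 0. For unloaded series b 0 were called against free-moving a and 3 against b, so these losses are not particular to Rgs16. After quantile normalization and median-ratio scaling 11.1% and 9.85% of all genes were called higher.

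Syt10 (ENSMUSG00000063260.2, chromosome 15, 89782393 to 89841860), a vesicle protein of the synaptotagmin family, showed the widest range of the 8 genes. In the late quiet free-moving series it was at 3.14, 3.30, 2.50, 3.21, 2.81 and 2.89 RPKM for numbers 1 to 21, and in no other library was it above 1.46. No library of that series overlapped with any of the other 42, which held for 10.1% of all genes. The late quiet unloaded libraries were at 0.721, 0.912, 1.46, 1.15, 0.917 and 1.37. The other series means were 0.68 ± 0.36 in early unloaded a, 0.59 ± 0.34 in late noise free-moving, 0.50 ± 0.28 in late noise unloaded, 0.36 ± 0.38 and 0.22 ± 0.11 in early free-moving a and b, and 0.13 ± 0.07 in early unloaded b (SD, n = 6 each). The 2 late quiet means differ from each other, and the free-moving one from all others, by more than their SD, while neighbours among the other 6 series overlap.

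Syt10 had the largest differences of the 8 in late against early mice, in late unloading in quiet, in noise in free-moving mice and in the interaction. In noise in unloaded mice Rgs16 and Lhx1 differed by more. Syt10 was higher in late than in early free-moving mice (limma log2 2.21 ± 0.16 SE, adjusted p = 2.8e-14, 6 of 6 title numbers) and lower with late unloading in quiet (−1.15 ± 0.19, adjusted p = 7.0e-05, 6 of 6). Noise came with less Syt10 in free-moving mice (−1.73 ± 0.19, adjusted p = 2.4e-09, 6 of 6) and in unloaded mice (−0.69 ± 0.19, adjusted p = 0.0047, 5 of 6). Late unloaded mice in quiet held more than early unloaded mice (0.90 ± 0.16, adjusted p = 3.2e-04, 6 of 6). The direct test of unloading with noise against unloading in quiet gave 1.04 ± 0.27 (adjusted p = 0.018, 6 of 6), where 4.38% of genes were called 0.482% in this direction and 3.90% in the opposite one.

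Within the free-moving series Syt10 was at like levels in thalamus-rich and other libraries. The 3 thalamus-rich ones were at 2.50, 3.21 and 2.81 RPKM. The 3 late quiet free-moving libraries that are not thalamus-rich averaged 3.11 ± 0.21 RPKM (SD). In the unloaded series the 2 such libraries, at 0.721 and 0.912, were the lowest. Without the thalamus-rich libraries the difference with late unloading in quiet was −1.46 (limma adjusted p = 0.034, the highest of 18 alternatives), with noise in free-moving mice −1.80 and in late against early free-moving mice 2.27. These 3 differences passed in all 18 alternatives, with highest adjusted p of 0.034, 4.2e-05 and 1.1e-06. The interaction did not pass without these libraries (1.36, adjusted p = 0.31), without number 1, 13 or 17 (adjusted p 0.086 to 0.11) or with a pseudocount of 0.1 (1.25, adjusted p = 0.16; lowest over its alternatives 3.0e-07). Noise in unloaded mice (−0.44, adjusted p = 0.36) and late against early unloaded mice (0.65, adjusted p = 0.47) did not pass without the thalamus-rich libraries either. The first was also lost with the mitochondrial covariate (−0.38, adjusted p = 0.32) and without number 13 (adjusted p = 0.060; lowest over its alternatives 0.0013). The second was lost in 1 of 18 alternatives (lowest adjusted p 6.7e-10).

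Syt10 was also the member with the fewest reads. The median library held about 37.0 reads, 8 libraries held 10 or fewer, and numbers 1 and 17 of early free-moving series a were listed at 0. At their estimated depth 0 reads allows up to 0.057 and 0.050 RPKM, counting error only. Series of the same labels were not alike for it, since early unloaded series b was lower than a (0.039 to 0.241 against 0.203 to 1.19 RPKM; limma log2 −0.85 ± 0.19, adjusted p = 0.039, 6 of 6), where 0.402% of genes were called lower. That call was lost in 10 of 18 alternatives, among them without early unloaded series a number 9 (−0.77, adjusted p = 0.11; 1.6e-06 to 0.27 over the alternatives).

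Lhx1 (ENSMUSG00000018698.15, chromosome 11, 84518284 to 84525535), a LIM homeobox factor that sets up the peptide programme of the nucleus, followed the same order of series at its upper end. The late quiet free-moving libraries were at 3.19, 2.62, 2.50, 1.83, 1.89 and 2.48 RPKM for numbers 1 to 21. The late quiet unloaded ones were at 1.69, 1.48, 1.87, 1.78, 1.14 and 1.19. Every free-moving library but the one at 1.83 was above all unloaded ones, and how many of all genes part in this way was not counted. Of the other 36 libraries, 1 was above 1.83 (2.09, early unloaded series a number 9). Their means ran from 0.37 ± 0.09 in early free-moving b to 1.26 ± 0.57 in early unloaded a (SD, n = 6 each), and neighbouring means overlap.

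In limma Lhx1 was higher in late than in early free-moving mice (log2 1.61 ± 0.17 SE, adjusted p = 1.0e-10, 6 of 6 title numbers) and lower with noise in free-moving mice (−1.21 ± 0.20, adjusted p = 3.6e-06, 6 of 6). Both passed in all 18 alternatives, with 1.76 and −1.36 without the thalamus-rich libraries and 0.87 and −0.75 with the mitochondrial covariate (highest adjusted p 9.9e-04 and 0.0012). In unloaded mice it was higher in late than in early series (0.53 ± 0.17, adjusted p = 0.012, 6 of 6) and lower with noise (−0.77 ± 0.20, adjusted p = 0.0037, 6 of 6). These were of like size without the thalamus-rich libraries (0.61 and −0.85) but did not pass with the 2 libraries then left in the late quiet unloaded series (adjusted p = 0.47 and 0.35, the highest of their alternatives). With the mitochondrial covariate they were 0.21 and −0.34 (adjusted p = 0.34 and 0.34), the first was also lost without number 1 (adjusted p = 0.054) and the second without number 13 (adjusted p = 0.057). With late unloading in quiet it was −0.52 ± 0.20, lower in 6 of 6 title numbers, and did not pass (adjusted p = 0.072). It passed there in 5 of 18 alternatives (adjusted p 1.7e-05 to 0.61).

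Early unloading came with more Lhx1 as well. Early unloaded series a ran from 0.345 through a median of 1.23 to 2.09 RPKM and b from 0.469 through 0.61 to 1.13, and early free-moving a from 0.053 through 0.50 to 1.20 and b from 0.221 through 0.38 to 0.479. In limma the difference was 0.56 ± 0.14 (adjusted p = 0.0045, higher in 6 of 6 title numbers). As for Rgs16, it did not pass with the mitochondrial covariate (0.24, adjusted p = 0.94), without number 9 or 17 (0.47 and 0.54, adjusted p = 0.064 and 0.057) or for unloaded series b alone (0.19 and 0.41, adjusted p = 0.68 and 0.32; lowest over its alternatives 5.6e-08). Few of all genes were called in these fits, as given for Rgs16, so these losses are not particular to Lhx1. The mitochondrial share itself was 20.5 ± 13.7% in unloaded series a, 34.3 ± 8.80% in b, and 41.8 ± 16.3% and 44.5 ± 7.35% in the free-moving series (SD, n = 6 each).

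Six6 (ENSMUSG00000021099.6, chromosome 12, 72939892 to 72944899), a homeobox factor without which the nucleus does not form, was even across series. Means ran from 1.34 ± 0.29 RPKM in late noise unloaded to 1.82 ± 1.10 in early unloaded a (SD, n = 6 each), and all neighbours overlap. Its highest value, 3.99 RPKM, was in early unloaded series a number 9, the library with Gh at 10146 and Prl at 1854 RPKM, and its next highest was 2.52. Six6 is also known from the pituitary. In the 7 thalamus-rich libraries Six6 was at 1.23 ± 0.17 (highest 1.49) and in the other 5 late quiet libraries at 2.21 ± 0.21 (lowest 1.95). How many of all genes part these sets was not counted. The sets also differ in title number, as given for Vip, so thalamic content and title number cannot be told apart here. With all libraries late against early free-moving mice gave 0.19 ± 0.17 (limma adjusted p = 0.30), and without the thalamus-rich libraries 0.57 (adjusted p = 0.018; 0.0061 to 0.65 over the alternatives). In the fit without these libraries 50.5% of all genes were called higher, and the median of all genes was 0.38.

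The daily course was tested over all 48 libraries. In these tests 0.877% of genes were called for a difference between title numbers and 1.76% for a 24-hour sine and cosine, and 0 of the 8 members were called by limma in either test. By unadjusted p under 0.05, Vip, Prok2 and Syt10 passed the first and Vip and Prok2 the second. For comparison, 10 of 17 core clock genes were called rhythmic, with Arntl peaking at 8.5 (amplitude 0.28 on the log2 scale), Dbp at 20.8 (0.60) and Per2 at 0.15 (0.48).

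Vip came nearest. Its means over the 8 series were 8.93 ± 2.54 RPKM at number 1, 6.73 ± 1.12 at 5, 6.54 ± 2.07 at 9, 6.77 ± 1.19 at 13, 6.98 ± 1.95 at 17 and 8.95 ± 1.59 at 21 (SD, n = 8 each). The highest library of a series was at number 21 or 1 in 6 of 8 series. The fitted amplitude was 0.24 on the log2 scale with a peak at 22.6 (limma unadjusted p = 0.0013, adjusted p = 0.065). It passed with array weights (adjusted p = 0.0014), with the mitochondrial covariate (adjusted p = 0.037) and without early unloaded series a number 9 (adjusted p = 0.012), 3 of 16 alternatives. Without the thalamus-rich libraries, which fall on numbers 9 to 21, the adjusted p was 0.44, the highest of the 16.

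Prok2 had its highest mean at number 13, 1.30 ± 0.34 RPKM against 0.73 ± 0.50 to 0.90 ± 0.45 at the other numbers (SD, n = 8 each), and the highest library of a series was at 13 in 4 of 8 series. Its fitted peak was at 13.2 with an amplitude of 0.20 (limma unadjusted p = 0.047, adjusted p = 0.39; 0.026 to 0.93 over 16 alternatives). Syt10 was highest at number 5 or 9 in all 8 series, 4 each (title number test, limma unadjusted p = 0.015, adjusted p = 0.20; 0.14 to 0.56 over 16 alternatives). Nms, Grp, Lhx1 and Six6 had unadjusted p of 0.13 to 0.71 for the 24-hour course. Differences of the rhythm between series or with unloading were called for 0 members, and by limma for 0 genes at all (1641 and 200 genes had an unadjusted p under 0.05). Rgs16 had the smallest unadjusted p of the 8 for a rhythm that differs between series (0.046, adjusted p = 0.41; 1.1e-05 to 0.95 over 15 alternatives), and with unloading no member was under 0.05 unadjusted.

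**Figure D3:**
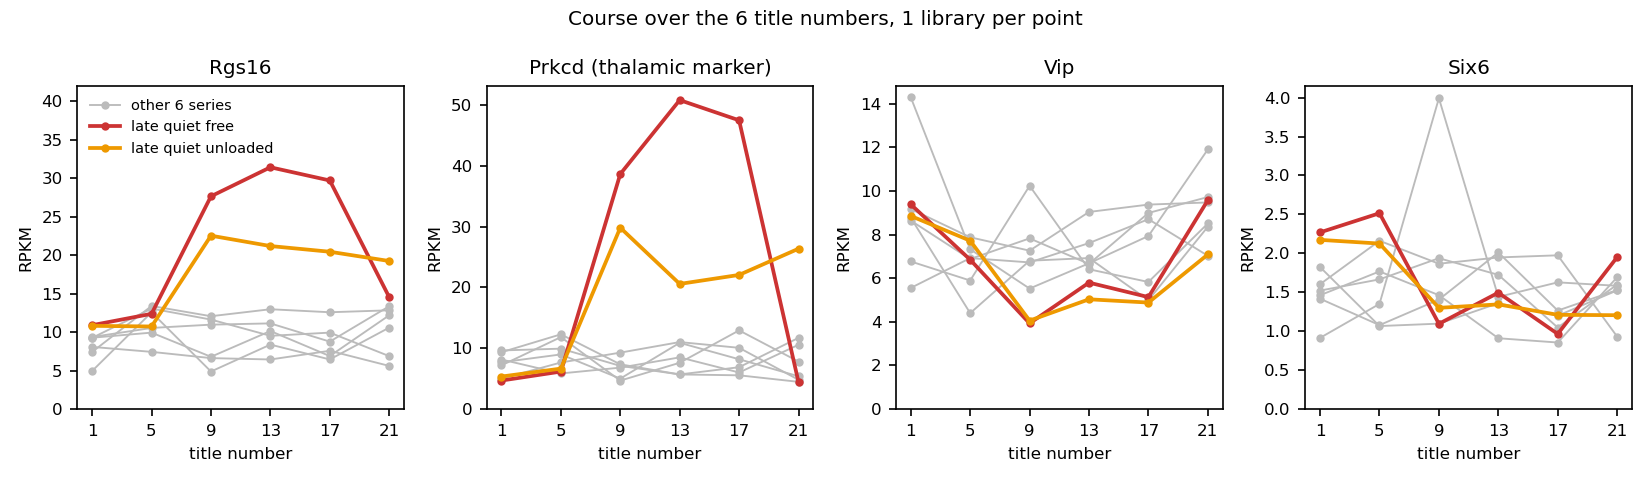
RPKM (y axis) of Rgs16, Prkcd, Vip and Six6 against the title number (x axis), 1 line per series and 1 library per point. Rgs16 and the thalamic marker Prkcd are high at numbers 9, 13 and 17 of both late quiet series, and Vip and Six6 are low in those libraries.

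How the called differences stood under the main doubts can be given for all of them. With all libraries 23 pairs of gene and comparison were called, 13 with the mitochondrial share as a covariate, 10 without the thalamus-rich libraries and 14 with thalamic marker level as a covariate. Of the 23, 7 were called in every alternative run: Nms, Rgs16, Syt10 and Lhx1 in late against early free-moving mice, Syt10 and Lhx1 with noise in free-moving mice, and Syt10 with late unloading in quiet. All 7 involve the late quiet free-moving series, a single series of 6 pools. In late against early free-moving mice 78.5% of all genes were called, 45.3% with the mitochondrial covariate and 64.9% without the thalamus-rich libraries. With noise in free-moving mice these shares were 57.6%, 49.1% and 32.3%, and with late unloading in quiet 12.8%, 29.6% and 0.168%. How many of all genes were called in every alternative was not counted. Some of these fits called few genes at all. For noise in unloaded mice 0 of 13685 genes were called with the mitochondrial covariate or without the thalamus-rich libraries. For late against early unloaded mice 2 were called without these libraries.

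**Figure D4:**
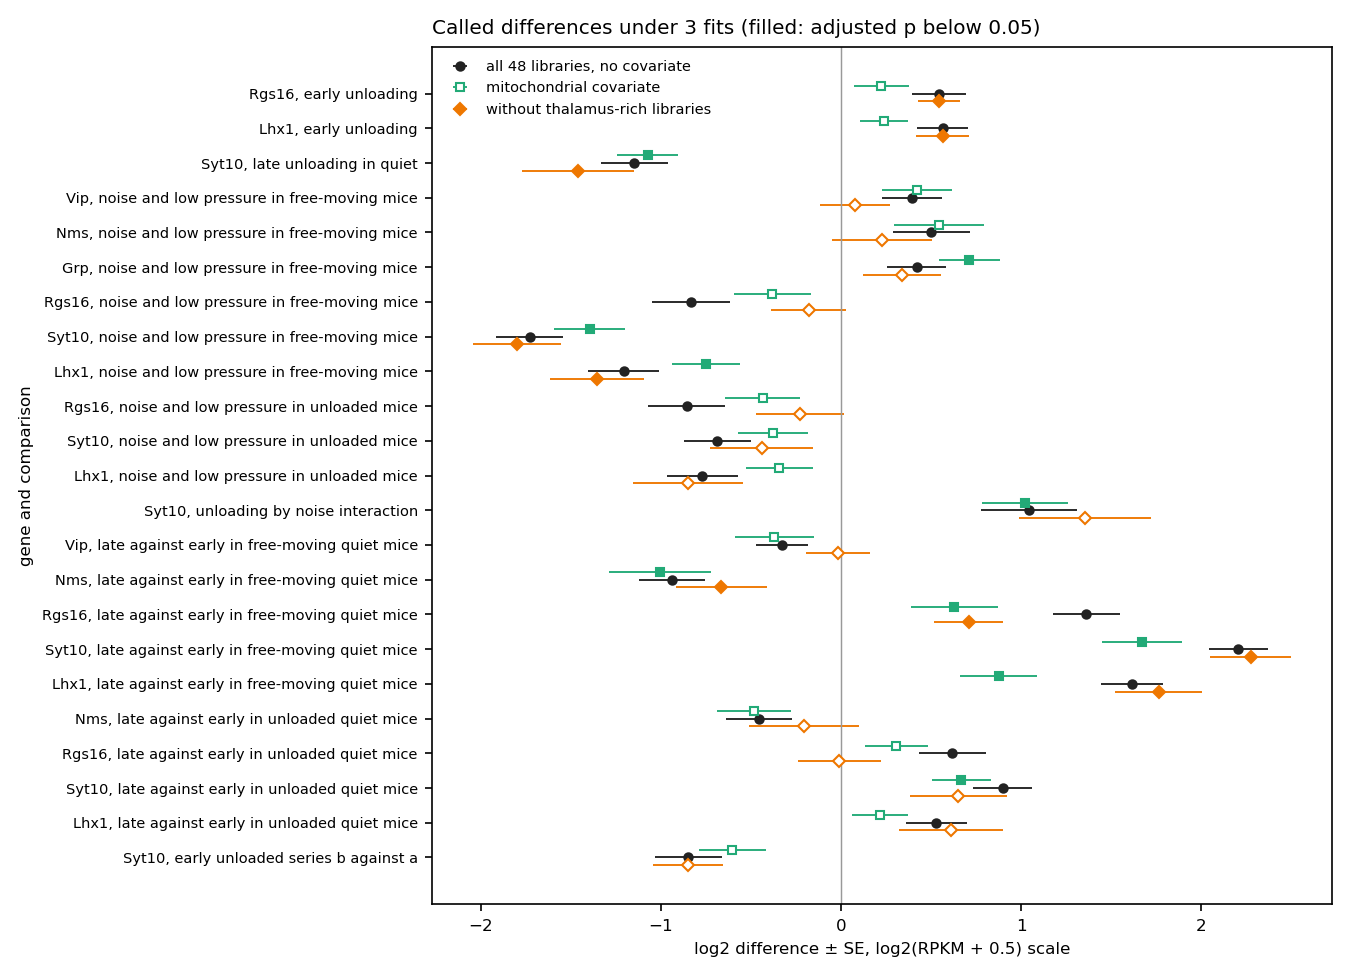
Log2 difference ± SE (x axis) for the 23 called pairs of gene and comparison (y axis), from 48 libraries, with the mitochondrial share as covariate, and without the 7 thalamus-rich libraries; filled symbols have an adjusted p below 0.05. Syt10 and Lhx1 stay apart from 0 in the late quiet free-moving comparisons, while Rgs16 with noise moves from −0.83 and −0.86 to −0.18 and −0.23.

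Other genes of the same system were taken from lists. Of 10 receptor genes listed for the nucleus, 6 were expressed enough to test. Nmur2 and Grpr, the receptors of neuromedin S and gastrin-releasing peptide, were among those not tested (mean 0.38 and 0.069 RPKM). In late against early free-moving mice all 6 were higher, among them Adcyap1r1 (limma log2 1.32), the PACAP receptor, Gpr176 (1.37), an orphan receptor of the nucleus, and Prokr2 (0.55), the receptor of Prok2. Their median was 0.76 against 0.43 for all genes, of which 60.5% were called higher. With noise in free-moving mice 4 of 6 were lower and 0 higher (median −0.48 against −0.15), among them Gpr176 (−0.99), Adcyap1r1 (−0.80) and Avpr1a (−0.60). There 36.4% of all genes were called lower. In early unloading 3 of 6 were higher, Adcyap1r1 (0.56), Vipr2 (0.42), the receptor of Vip, and Gpr176 (0.42). There 50.9% of all genes were called higher, so this count is near the share of all genes.

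Other peptide genes went the opposite way. In late against early free-moving mice 6 of 6 tested peptides were lower and 0 higher, with a median of −0.77. There 18.0% of all genes were called lower. Avp, vasopressin of the nucleus shell and of the neurosecretory nuclei, was at −2.16, and Sst, somatostatin, at −1.02. Avp lay at 610.5 to 1096 RPKM in late quiet free-moving mice, at 1596 to 7580 in early free-moving series a and at 3173 to 5811 in b. How many of all genes have ranges apart in this way was not counted. With noise in free-moving mice 4 of 6 were higher and 0 lower (median 0.72), with Cartpt at 1.12, Avp at 1.86 and Sst at 0.88. There 21.2% of all genes were called higher. Avp and Sst are made in several hypothalamic nuclei. Markers of other hypothalamic nuclei did not all go 1 way in late against early free-moving mice, where 60.5% of all genes were higher and 18.0% lower. Of 4 tested arcuate genes 4 were lower. Of 5 genes of the paraventricular and supraoptic nuclei, Avp among them, 2 were lower and 1, Sim1, was higher (median −0.24). Of 2 genes of the lateral hypothalamus 1, Pmch, was higher and 0 were lower. The summed level of the 5 listed arcuate genes was 68.0 to 110.8 RPKM in late quiet free-moving mice, 165.2 to 540.1 in early free-moving a and 234.9 to 388.2 in b, and of these Kiss1 was at 0 in nearly all libraries. The summed level of the 5 paraventricular and supraoptic genes was 1150 to 1956 RPKM in late quiet free-moving mice, 2902 to 10847 in early free-moving a and 5013 to 8532 in b, with none at 0. That of the 2 lateral hypothalamic genes was 386.6 to 644.1, 247.1 to 735.1 and 288.7 to 505.0. Their part in the result was not tested.

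Of 7 further transcription factors listed for the nucleus, 4 were higher and 1 lower in late against early free-moving mice. Rora (1.56) and Rorb (1.12), nuclear receptors of the clock, and Zfhx3 (1.06) were higher, and Rax (−1.38) was lower. Which cells these transcripts came from cannot be told in pooled hypothalamus. Of all genes, 60.5% were called higher and 18.0% lower there. With noise in free-moving mice 3 of the 7 factors were lower and 1 higher (Rora −1.21, Rorb −0.70, Rax 1.14). In that comparison 36.4% of all genes were called lower and 21.2% higher. Of 17 core clock genes, 16 were higher and 0 lower in late against early free-moving mice, where 60.5% of all genes were higher (median 0.70 against 0.43 for all genes), among them Clock (1.13), Hlf (1.06) and Bhlhe40 (1.09). In early unloading 12 were higher and 0 lower, where 50.9% of all genes were higher (median 0.32 against 0.23 for all genes), with Tef at 0.46, Cry2 at 0.48 and Cry1 at 0.32.

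These list counts moved with the processing, which was tried after the data were seen, and so did the counts of all genes. In early unloading 6970 of 13685 genes were called higher in the deposited values, against 1521 once quantiles were equalised and 1 with the mitochondrial covariate. In late against early free-moving mice 60.5%, 40.6% and 15.9% of all genes were called higher in these fits, and with noise in free-moving mice 21.2%, 31.1% and 37.9%. The 12 clock genes higher in early unloading were 2 after quantile normalization and 0 with the mitochondrial covariate, where the median of the list was 0.07 and 0.00. The receptors there were 1 and 0 of 6, and the transcription factors 1 and 0 of 7. In late against early free-moving mice the 16 clock genes were 11 higher and 1 lower after quantile normalization, and 2 higher and 5 lower with the mitochondrial covariate. The 6 receptors were 4 and 0, with 0 lower in either. The peptides were lower in 6 of 6 after quantile normalization and in 3 with the mitochondrial covariate, and in 5 without the thalamus-rich libraries. With noise in free-moving mice the peptides were higher in 5 and 3, and the receptors lower in 4 and 0. Without the thalamus-rich libraries the transcription factors there were 0 higher and 1 lower of 7, and the receptors 4 lower of 6. In that fit 15.1% of all genes were called higher and 2354 genes lower. In late against early free-moving mice 13 clock genes, 6 receptors and 4 factors were then higher, and 1 factor lower, where 50.5% of all genes were called higher.

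Each series has 1 library per title number, so what an additive model of both leaves over holds library spread and any course particular to a series, and the members were compared in that remainder. After terms for series, title number and mitochondrial share, the highest correlations over 48 libraries were Vip with Six6 (r = 0.69), Nms with Prok2 (0.56), Syt10 with Lhx1 (0.54) and Vip with Nms (0.43). The points share library, depth and dissection. Early unloaded series a number 9, the library with pituitary genes, was among them, with the highest Six6 (3.99 RPKM) and with Vip at 10.2, the highest of its series. Its part in these correlations was not tested. After also removing the thalamic marker level they were 0.52, 0.55, 0.55 and 0.33. The highest was then Grp with Rgs16 (0.58, from −0.12), and Grp with Prok2 was −0.53 (from −0.42). Vip with Rgs16 turned from −0.37 to 0.23 with that step, and Rgs16 with Six6 from −0.41 to 0.35. The 8 markers did not form 1 block, since the other correlations among them lay on both sides of 0.

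**Figure D5:**
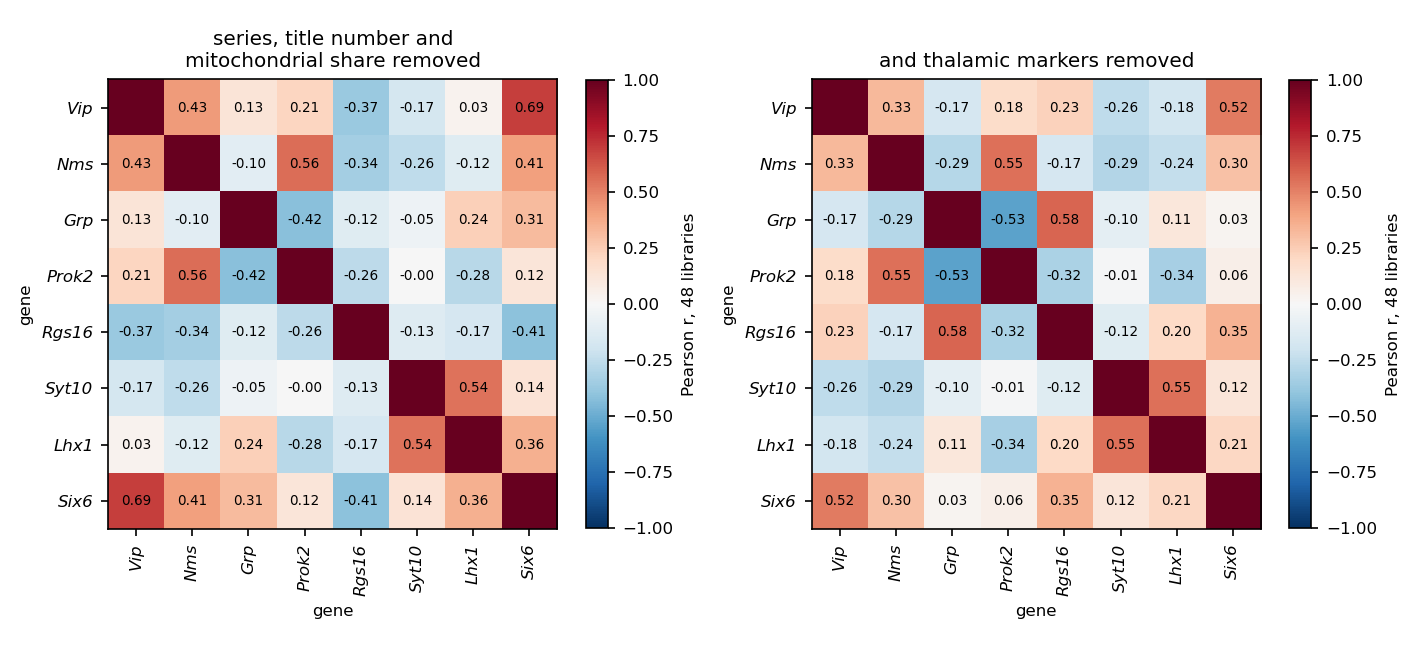
Pearson r between the 8 genes over 48 libraries after removing series, title number and mitochondrial share (left) and also the thalamic marker level (right); both axes list the genes. Vip with Six6, Nms with Prok2 and Syt10 with Lhx1 stay above 0.5 in both panels.

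Among all 13685 genes, the patterns most like each member over the same 48 remainders were as follows, as a description. Rgs16 ran most closely with Ptpn3 (r = 0.86), Lrrtm1 (0.85) and the thalamic marker Ntng1 (0.82), followed by Synpo2 and Adarb1. Vip ran with Ahi1 (0.81), Minar2 (0.80), Gprasp2 (0.73) and Nr5a1 (0.73), and Six6 was the seventh closest gene to it. Six6 ran with Gabre (0.79), H2-Q2 (0.77) and Otp (0.76), a homeobox gene of neuroendocrine nuclei. Lhx1 ran with Astn2 (0.85) and Zmiz1 (0.82), and Syt10 with Akap12 (0.72), Spire1 (0.71) and Gna13 (0.71). Grp ran with Ormdl3 (0.75) and Mas1 (0.74). For Nms (Cfap161, 0.67) and Prok2 (Arpp19, 0.66) the closest genes were less close, and Prok2 was the sixth closest gene to Nms.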

How the data were processed

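Values are RPKM per gene as deposited by the authors, 1 table of 48 columns; the submitters' processing notes name CASAVA 1.8 and HISAT. Aligner version, genome build, gene models: not given in the sources used here. Series were taken from the labels. Depth was estimated from the RPKM steps with GENCODE M21 exon lengths (28.35 to 55.2 M reads, median 38.06; 62.5% to 68.5% of values up to 12 reads came out whole within 0.02 reads); read numbers per gene are approximate.

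Differences were fitted with limma 3.58.1 in R 4.3.3 on log2(RPKM + 0.5) for 13685 genes with a mean RPKM of at least 0.5, with series and title number as terms, 35 residual degrees of freedom and a variance trend on mean level. The model was tested on simulated data. All 8 members are named in every comparison, with the 5 genes most alike each, and up to 3 called genes from each related list. Members, lists, comparisons and part of the alternatives were chosen with earlier results of these data known. The searched letters were chosen after the sequences were read, and the fits on thalamic content and the list alternatives after the data were seen. Identical numbers did not pair the libraries (median r of deviations 0.080 for 168 pairs of 1 number, lowest −0.53, and −0.017 for 840 others). No 2 libraries were identical (highest r 0.995). Alternatives were another pseudocount, no filter, quantile and median-ratio scaling, array weights, no replicate block, a covariate for the mitochondrial share, only the series compared, single early series, and leaving out each title number or 1 library. For the time of peak, Arntl, Per2 and Dbp served as references. Sequences are from RefSeq; figures were drawn with matplotlib 3.10.9.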

Additional observations from a re-analysis of the deposited data

Results flagged for a closer look

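Single libraries far from the other 5 of their series were found in 5 of 64 groups checked, and chance gives about 1 in 20. Nms was high in number 1 of early free-moving series a (3.53 RPKM) and in number 1 of the late quiet free-moving series (1.35). Rgs16 was low in number 1 of early unloaded series a (7.43). Lhx1 was high in number 9 of early unloaded series b (1.13), and Six6 in number 9 of early unloaded series a (3.99), the library with pituitary genes. The effect of unloading on Syt10 differed between noise and quiet by 1.04 on the log2 scale (limma adjusted p = 0.018), with an adjusted p of 0.31 without the thalamus-rich libraries and 3.0e-07 to 0.31 over the alternatives.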

How the results depend on the processing

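Of 422 refits of the 23 called pairs, 334 kept direction and call, and the like share over all genes was not counted. In 2 the direction reversed without being called: Vip in late against early free-moving mice with the thalamic covariate (0.10) and Rgs16 in late against early unloaded mice without the thalamus-rich libraries (−0.010). Counts of members called moved as follows, and the cause was not tested. Early unloading (2) gave 5 with array weights (78.3% of all genes called), 0 with the mitochondrial covariate (1 gene called), 4 for unloaded a against free-moving b (60.2%), and 0 for unloaded b against a or b (0 and 3 genes). Late unloading in quiet (1) gave 2 with quantile, median-ratio or the mitochondrial covariate (28.6%, 23.4% and 29.6% of all genes called). It gave 3 with array weights or only the series compared (53.6% and 51.9%). Noise in free-moving mice (6) gave 3 with the mitochondrial covariate (49.1%) and 2 without the thalamus-rich libraries or with the thalamic covariate (32.3% and 38.9%). Noise in unloaded mice (3) gave 5 after quantile normalization (43.0%). It gave 0 with the mitochondrial covariate, without the thalamus-rich libraries or with the thalamic covariate, where 0, 0 and 3 of all genes were called. The interaction (1) gave 0 with pseudocount 0.1 (4.19%), 2 with array weights (45.9%) and 0 without the thalamus-rich libraries (0.095%). Late against early unloaded (4, 1 of them lower) gave 1 with the mitochondrial or thalamic covariate (17.1% and 4.66% of all genes), 0 without the thalamus-rich libraries (2 genes), and 6, 3 of them lower, with quantile normalization, median-ratio scaling or array weights (46.6%, 47.1% and 68.8%). Early free-moving b against a (0) gave 1, Grp, with quantile, median-ratio, array weights or the mitochondrial covariate (4.67%, 5.68%, 26.7% and 5.71%). Early unloaded b against a (1) gave 3 with array weights (57.3%). It gave 0 without a filter, with the mitochondrial covariate, with no replicate block or without the thalamus-rich libraries (0.047%, 0%, 0.007% and 0.007%). For title number (0), array weights gave 3 (5.76%) and leaving out early unloaded a number 9 gave 1 (1.23%). For the 24-hour course (0), array weights gave 3 (9.06%) and the mitochondrial covariate or leaving out that library 1 (3.54% and 1.72%). For rhythm between series (0), array weights gave 5, where 77.5% of all genes were called. Leaving out a title number or 1 library gave 0 to 3 members for early unloading, 1 to 2 for late unloading in quiet, 3 to 6 for noise in free-moving mice, 1 to 3 in unloaded mice, 0 to 1 for the interaction and 0 to 3 for early unloaded b against a. In that order, the share of all genes called was 0% to 64.7%, 4.52% to 15.3%, 48.6% to 58.8%, 9.36% to 56.4%, 0.431% to 7.63% and 0% to 39.2%. With no replicate block, Vip lost its calls with noise (adjusted p = 0.077) and in late against early free-moving mice (0.068) and Syt10 in early unloaded b against a (0.078), and no other call changed. Low read numbers limit Syt10, Nms and Prok2.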
